A study of Mus musculus with 9 samples.

Results

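The 9 genes described here are markers and effectors of tissue macrophages: Cd68, Csf1r, Adgre1, Mrc1, Lyz2, C1qa, C1qb, C1qc and Cd163. They were chosen by name, and all 9 were found among the 11802 genes of the deposited table. Their levels were measured in RNA that came down with HA-tagged ribosomes from mouse white adipose tissue, an assay known as RiboTag, where the tag is fused to Rpl22, a protein of the large subunit, in cells that express Cre. KO libraries (n = 5) came from Pdgfb-iCreERT2:Mfn2ideltaEC:Rpl22HA mice, which lack Mfn2 in endothelial cells, and WT libraries (n = 4) came from Pdgfb-iCreERT2:Rpl22HA mice, in which endothelial Mfn2 is present. Both groups therefore carried the inducible Pdgfb-iCreERT2 driver, aimed at endothelium, and the tagged Rpl22. The labels give neither the age of the mice nor the induction schedule, and they name no separate batch. Replicates are labelled as biological, with no animal named, and p-values here speak only of the spread from library to library.

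Macrophages are the most abundant resident immune cells of healthy adipose tissue, and many of them lie along its vessels. They depend on signalling through the CSF1 receptor, take up dying cells, lipid and haemoglobin, and are the main source of the complement component C1q. C1q is built from the products of C1qa, C1qb and C1qc, and starts the classical complement pathway when it binds antibody or cell debris. Since the tag was aimed at endothelial cells, macrophage genes are not members of the targeted cell type's usual programme. How much of their RNA was bound to tagged ribosomes and how much came down with the beads from other cells was not tested. In such bulk captures a smaller number of macrophages and less RNA per macrophage cannot be told apart.

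C1qa, C1qc and C1qb lie beside each other on chromosome 4, all on the minus strand. C1qb spans 136880129 to 136886187 (GRCm38), C1qc spans 136889804 to 136893065, and C1qa spans 136895917 to 136898803. Gaps of 3616 and 2851 bases separate them, within a stretch of 18675 bases. Macrophage genes are known targets of the ETS factor PU.1, whose binding sites hold a GAGGAA core. That core was searched on both strands in the 250 bases before each start in RefSeq (GRCm38.p6), where 6 of the 9 genes matched an entry. It was present in 4 of the 6, against 23.3% of all 32851 windows, namely Cd68, Mrc1, C1qb and C1qc, and it was not in the windows of Lyz2 and Cd163, of which that of Cd163 overlaps an exon of Gm25311. The windows of the C1q pair are shown because these genes are neighbours whose levels are compared below, and that of Mrc1 because it held 3 copies. Capitals mark the core, written GAGGAA or, on the other strand, TTCCTC. Bases that lie inside the gene as GENCODE M21 draws it are left off, which leaves chr4:136886201-136886450 (minus strand) for C1qb, chr4:136893066-136893164 (minus strand) for C1qc and chr2:14229164-14229391 (plus strand) for Mrc1. A match describes these letters and is not evidence of binding.
C1qb: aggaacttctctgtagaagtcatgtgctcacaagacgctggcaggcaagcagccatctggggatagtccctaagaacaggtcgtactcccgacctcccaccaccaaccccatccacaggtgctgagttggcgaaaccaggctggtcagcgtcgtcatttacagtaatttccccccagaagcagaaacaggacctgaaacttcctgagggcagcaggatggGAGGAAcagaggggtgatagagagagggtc
C1qc: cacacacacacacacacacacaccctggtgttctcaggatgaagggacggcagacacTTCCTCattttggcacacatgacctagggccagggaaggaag
Mrc1: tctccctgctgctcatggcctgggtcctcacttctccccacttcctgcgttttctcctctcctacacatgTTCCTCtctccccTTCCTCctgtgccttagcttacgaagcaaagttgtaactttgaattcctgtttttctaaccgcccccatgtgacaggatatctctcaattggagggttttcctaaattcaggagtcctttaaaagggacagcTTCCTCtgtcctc

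Several features of the whole series bear on every level below. Listed reads ran from 1615968 to 3829356 in KO libraries and from 1034753 to 2501047 in WT libraries. The 19 endothelial marker genes were all measured, and none was at 0 in any library. The mitochondrial ribosomal RNAs mt-Rnr1 and mt-Rnr2 took 12.8% to 25.2% of listed CPM in KO libraries and 13.9% to 64.8% in WT libraries, where WT replicate 4 was the library at 13.9%. Median CPM over all genes ran from 16.7 to 23.9 in KO libraries and from 6.30 to 16.2 in WT libraries. Levels are therefore given as deposited, in CPM, and also as log2(CPM + 1) minus the library's own median, called relative values. Over all genes the median log2 fold change of KO over WT was 1.10 in the deposited scale and 0.12 in the relative scale. Mfn2 RNA itself averaged 66.7 ± 37.0 CPM in KO libraries and 36.1 ± 15.0 CPM in WT libraries (SD, n = 5 and 4; relative change -0.16, limma adjusted p = 0.898), so the level of the targeted gene did not separate the labels, which alone set the directions below.

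Of the 9 macrophage genes, Cd163 rose in the deposited CPM and none was called in the relative values. The test was limma over all 11802 genes, with a Benjamini-Hochberg adjusted p under 0.05 as a call. The 1 member called higher stands against 32.0% of all genes called higher, and the 0 members called lower stand against 0.203%. In the relative values limma called 0.0339% of all genes higher and 0.0763% lower. There, 0 members had an unadjusted p under 0.05, against 1378 of all 11802 genes. On recovered reads edgeR with TMM called 0 members (all genes 0.00847% higher and 0.0169% lower), as did DESeq2 (0.246% higher and 0.949% lower). All 9 members had a deposited log2 fold change above 0, with a median of 0.67, below the 1.10 of all genes. In the relative values 7 of the 9 lay below 0, with a median of -0.30 against 0.12 for all genes, of which 57.9% lay above 0. KO and WT ranges in CPM overlapped for each of the 9 genes, whereas they did not overlap for 18.7% of all genes.

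**Figure D1:**
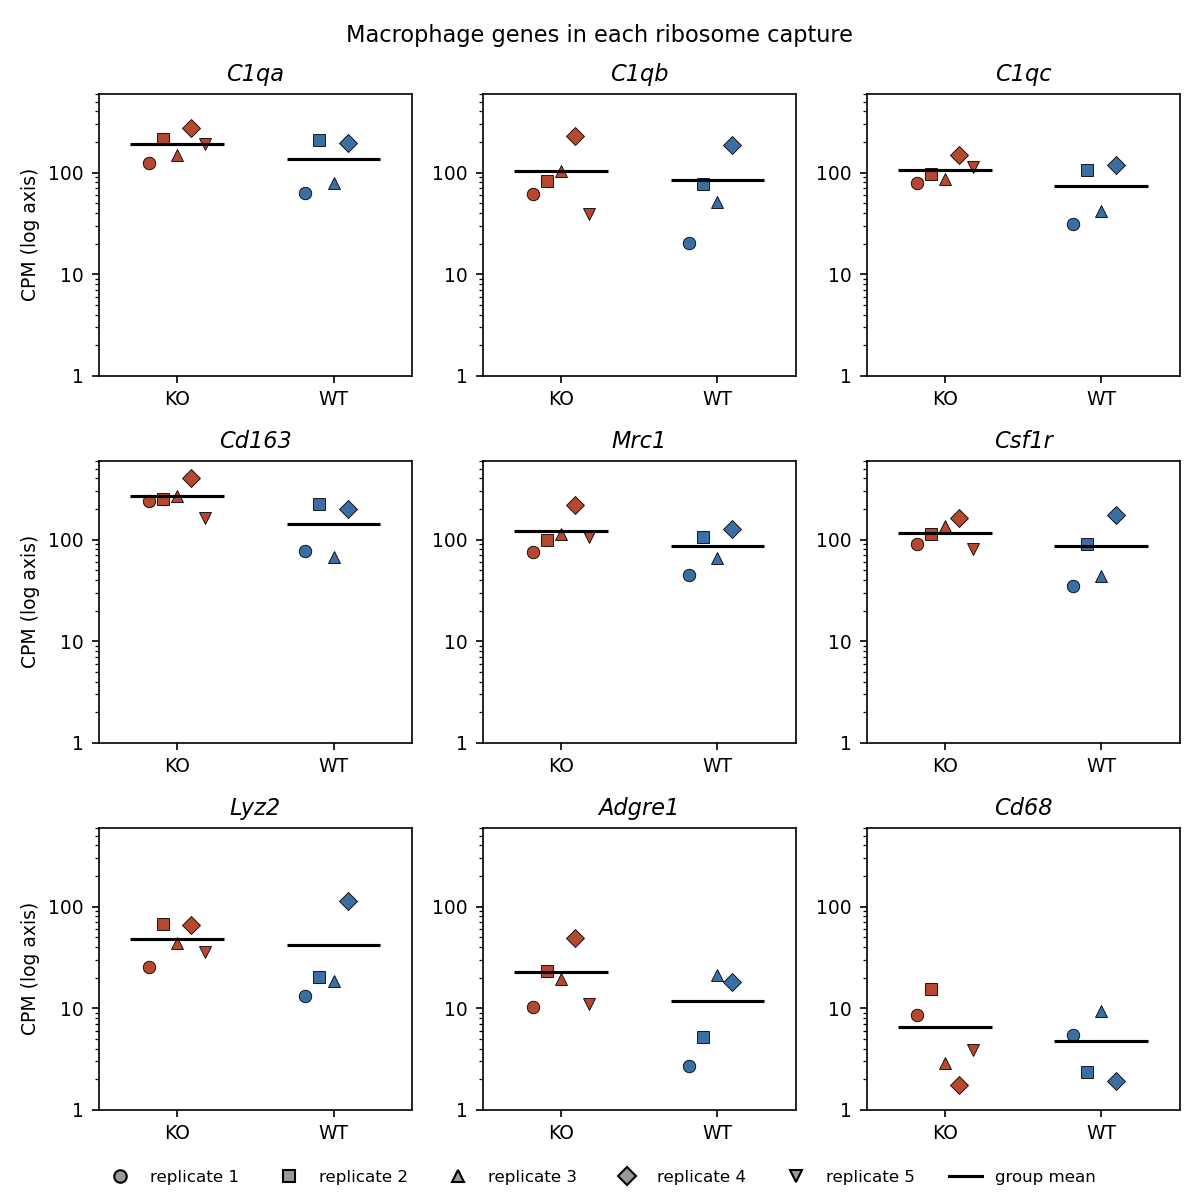
CPM of each macrophage gene (log axis) in 5 KO and 4 WT libraries, with 1 point per library, symbols for replicate numbers and bars at group means. The groups overlap in every panel, and WT replicate 4 (diamond) is the highest WT library for 5 of the 9 genes.

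Among the C1q genes, C1qa had the highest level. C1qa was at 124, 213, 149, 274 and 193 CPM in KO replicates 1 to 5, against 62.6, 207, 79.3 and 196 CPM in WT replicates 1 to 4. Both WT replicates 2 and 4 lay within the KO range, and WT replicates 1 and 3 lay below it. The mean was 190 ± 58.4 CPM in KO libraries and 136 ± 75.7 CPM in WT libraries (SD, n = 5 and 4), a deposited log2 fold change of 0.62 (SE 0.415; by limma, p adjusted over all genes = 0.211), and the relative change came to -0.36 (SE 0.316, adjusted p = 0.704).

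C1qc followed the same order of libraries closely. It was at 79.2, 96.5, 86.9, 148 and 114 CPM in KO replicates 1 to 5, and at 31.1, 105, 41.5 and 118 CPM in WT replicates 1 to 4. Its deposited log2 fold change was 0.68 (SE 0.426; by limma, p adjusted over all genes = 0.182), and the relative change came to -0.30 (adjusted p = 0.757). WT replicates 1 and 3 were again the only libraries below the lowest KO value.

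C1qb spread more widely than its neighbours. It was at 61.3, 81.7, 104, 231 and 38.8 CPM in KO replicates 1 to 5, and at 20.3, 77.9, 50.95 and 186 CPM in WT replicates 1 to 4. The highest KO value was therefore in KO replicate 4 and the lowest in KO replicate 5, the library in which C1qa and C1qc were not low. The deposited log2 fold change was 0.46 (SE 0.486; by limma, p adjusted over all genes = 0.426), and the relative change came to -0.52 (SE 0.442, adjusted p = 0.689).

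Within the C1q locus, the ratio of C1qa to C1qc covered a narrower range than that of C1qa to C1qb. C1qa per C1qc ran from 1.57 to 2.20 in KO libraries and from 1.66 to 2.01 in WT libraries, with means of 1.81 ± 0.244 in KO libraries and 1.89 ± 0.157 in WT libraries (SD, n = 5 and 4). Its counting intervals lay just apart between KO replicate 1 (1.34 to 1.84) and KO replicate 2 (1.86 to 2.61), the lowest and highest KO ratios. Since these libraries were picked for their ratios, so narrow a gap does not show a spread beyond counting error. C1qa per C1qb ran from 1.18 to 4.97 in KO libraries and from 1.05 to 3.09 in WT libraries. KO replicate 5 stood at 4.97 (95% exact binomial interval 4.16 to 5.96, from 750 and 151 reads), and KO replicate 4 at 1.18 (1.03 to 1.36, from 468 and 395 reads). WT replicate 1 stood at 3.09 (2.19 to 4.43) and WT replicate 4 at 1.05 (0.860 to 1.28). Intervals of the C1qb ratio thus lay apart within each group, so its spread was larger than counting error, and the groups overlapped. These intervals cover counting error only, since PCR copies of a molecule may count as separate reads.

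**Figure D2:**
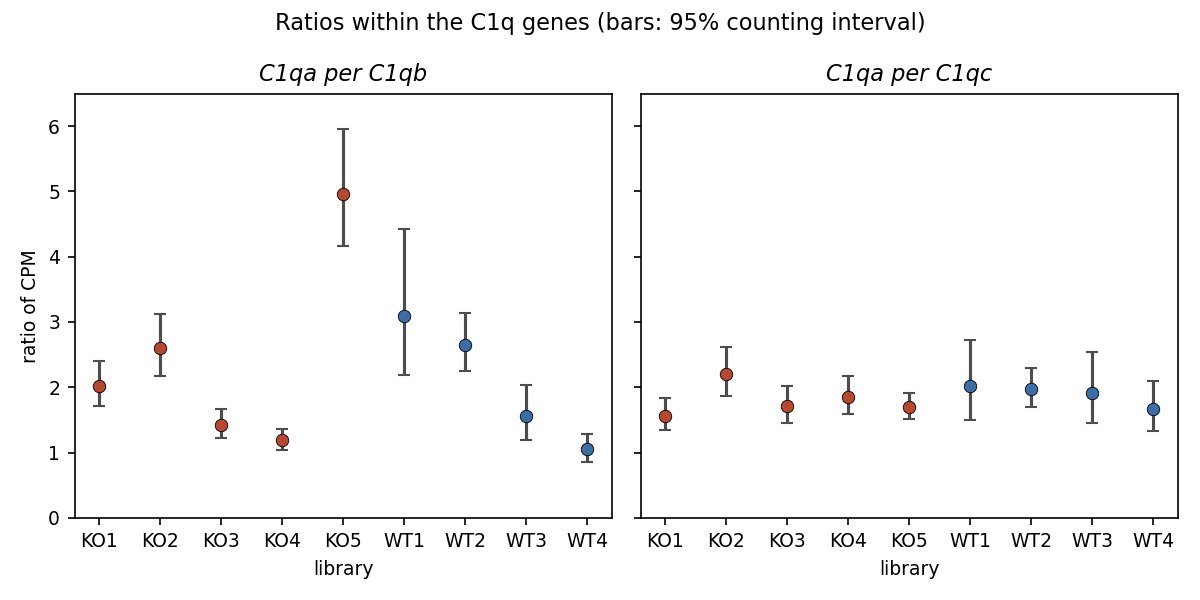
Ratio of C1qa to C1qb (left) and of C1qa to C1qc (right) in each library, with 95% exact binomial intervals for counting error; KO in red, WT in blue. The C1qc ratio lies between 1.57 and 2.20, and the C1qb ratio runs from 1.05 to 4.97 with high and low libraries in both groups.

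Cd163, the haemoglobin-haptoglobin scavenger receptor of resident macrophages, had the most reads of the 9 genes and was the member that passed the test. It lies on chromosome 6 (124304656 to 124330527, plus strand, GRCm38). Its level was 239, 249, 271, 406 and 164 CPM in KO replicates 1 to 5, against 76.5, 223, 66.7 and 201 CPM in WT replicates 1 to 4. Of the 5 KO libraries, 4 lay above all WT libraries, and KO replicate 5 lay below WT replicates 2 and 4. The mean was 266 ± 88.0 CPM in KO libraries and 142 ± 81.6 CPM in WT libraries (SD, n = 5 and 4), a deposited log2 fold change of 1.04 (SE 0.416; by limma, p adjusted over all genes = 0.0489). This was no larger than the median of all genes, and the relative change was 0.07 (95% interval -0.63 to 0.76, adjusted p = 0.957). Permuting the group labels over the libraries, exactly and two-sided, left p = 0.0794 for its CPM, the lowest of 18 such tests over 9 genes and 2 scales, where 0.0159 is the smallest possible. Leaving out each library in turn kept the call 3 times of 9, namely without KO replicate 5 (adjusted p = 0.0467), WT replicate 2 (0.0371) or WT replicate 4 (0.0120). It was lost without KO replicate 1 (0.0554), 2 (0.0663), 3 (0.0940) or 4 (0.133) and without WT replicate 1 (0.165) or 3 (0.191). With CPM rescaled after removal of mt-Rnr1 and mt-Rnr2 the log2 fold change was 0.46 (limma adjusted p = 0.381).

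Mrc1, the mannose receptor CD206, is a further scavenger receptor of resident macrophages that lymphatic and sinusoidal endothelium also makes. It was at 75.9, 98.9, 112, 217 and 105 CPM in KO replicates 1 to 5, and at 44.6, 106, 66.2 and 128 CPM in WT replicates 1 to 4. WT replicates 2 and 4 lay among the KO libraries, of which KO replicate 4 stood far above the other 4. The deposited log2 fold change was 0.51 (SE 0.416; by limma, p adjusted over all genes = 0.297), and the relative change came to -0.46 (95% interval -1.10 to 0.17, adjusted p = 0.583). This was the smallest adjusted p of the 9 genes in the relative scale. The gene lies on chromosome 2 (14229392 to 14332057, plus strand, GRCm38).

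Csf1r, the receptor for the macrophage growth factors CSF1 and IL-34, lies on chromosome 18 (61100598 to 61132149, plus strand, GRCm38). It was at 90.2, 114, 137, 162 and 81.0 CPM in KO replicates 1 to 5, and at 35.1, 89.4, 44.1 and 175 CPM in WT replicates 1 to 4. WT replicate 4 lay above all 5 KO libraries, and 4 of the 5 KO libraries lay above the other WT libraries. The deposited log2 fold change was 0.68 (SE 0.432; by limma, p adjusted over all genes = 0.189), and without WT replicate 4 it was 1.11 (adjusted p = 0.0222), where 50.1% of all genes were called higher and 0.119% lower. Without that library 4 members rose, Csf1r, Lyz2, C1qc (0.98, adjusted p = 0.0453) and Cd163. Relative to the library median the change was -0.30, and without WT replicate 4 it was -0.08. It overlaps Hmgxb3 on the other strand, which averaged 35.8 CPM in KO libraries and 8.09 CPM in WT libraries, and without strand the reads of the overlap cannot be told apart.

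Of its ligands, Csf1 was at 38.0 ± 9.08 CPM in KO libraries and 22.9 ± 9.11 CPM in WT libraries (SD, n = 5 and 4; deposited log2 fold change 0.76, limma adjusted p = 0.171, relative change -0.22). Among 3 measured ligand genes for macrophages and monocytes, Tgfb1 and Cx3cl1 rose in the deposited CPM, where 32.0% of all genes were called higher. Without KO replicate 5, 0 of the 3 were called, where 15.5% of all genes were called higher. Cx3cl1, the membrane-bound chemokine fractalkine, averaged 10.4 ± 6.33 CPM in KO libraries and 1.45 ± 1.78 CPM in WT libraries (log2 fold change 2.21, limma adjusted p = 0.0196). Tgfb1 averaged 34.9 ± 20.3 CPM in KO libraries and 8.81 ± 4.23 CPM in WT libraries (1.82, adjusted p = 0.0133). Neither was called in the relative values, where the changes were 1.23 and 0.85.

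Lyz2, lysozyme of macrophages and neutrophils, had 1 WT library far above the others. It lies on chromosome 10 (117277331 to 117282321, minus strand, GRCm38). It was at 25.2, 66.9, 43.3, 65.6 and 36.0 CPM in KO replicates 1 to 5, against 13.1, 20.2, 18.4 and 114 CPM in WT replicates 1 to 4. All 5 KO libraries lay above WT replicates 1 to 3 and below WT replicate 4. The mean was 47.4 ± 18.4 CPM in KO libraries and 41.4 ± 48.5 CPM in WT libraries, and without WT replicate 4 the WT mean was 17.2 ± 3.71 CPM. The deposited log2 fold change was 0.67 (SE 0.499; by limma, p adjusted over all genes = 0.256) with all libraries and 1.34 (adjusted p = 0.0160) without WT replicate 4, while the relative changes were -0.30 and 0.15. Its close paralog Lyz1 averaged 13.4 ± 3.98 CPM in KO libraries and 17.3 ± 17.1 CPM in WT libraries, and how reads were split between the pair is not given in the sources used here. The neutrophil genes S100a8, S100a9, Ly6g, Csf3r and Cxcr2 were not among the listed genes.

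Adgre1 and Cd68, the most used pan-macrophage markers, were the least abundant of the 9. Adgre1, which encodes the F4/80 surface antigen, lies on chromosome 17 (57358691 to 57483527, plus strand, GRCm38). Adgre1 had 34, 49, 54, 84 and 43 reads in KO replicates 1 to 5, and 6, 13, 40 and 19 reads in WT replicates 1 to 4. Its mean was 22.7 ± 15.8 CPM in KO libraries and 11.7 ± 9.15 CPM in WT libraries, with a deposited log2 fold change of 1.04 (SE 0.582; by limma, p adjusted over all genes = 0.140), and the relative change came to 0.06 (adjusted p = 0.979). Cd68, a lysosomal membrane glycoprotein gene, lies on chromosome 11 (69664213 to 69666153, minus strand, GRCm38). Cd68 had 28, 32, 8, 3 and 15 reads in KO replicates 1 to 5, and 12, 6, 18 and 2 reads in WT replicates 1 to 4. The libraries with the most C1qb and Csf1r, KO replicate 4 and WT replicate 4, held the fewest Cd68 reads. They also had the fewest listed reads of all (1615968 and 1034753). Their Cd68 levels were 1.76 and 1.90 CPM, close to the 2.37 CPM of WT replicate 2. Counts this low cannot set Cd68 against C1qb and Csf1r. Cd68 averaged 6.46 ± 5.56 CPM in KO libraries and 4.78 ± 3.48 CPM in WT libraries, and its 95% interval in the relative scale, from -2.17 to 0.74, was the widest of the 9.

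**Figure D3:**
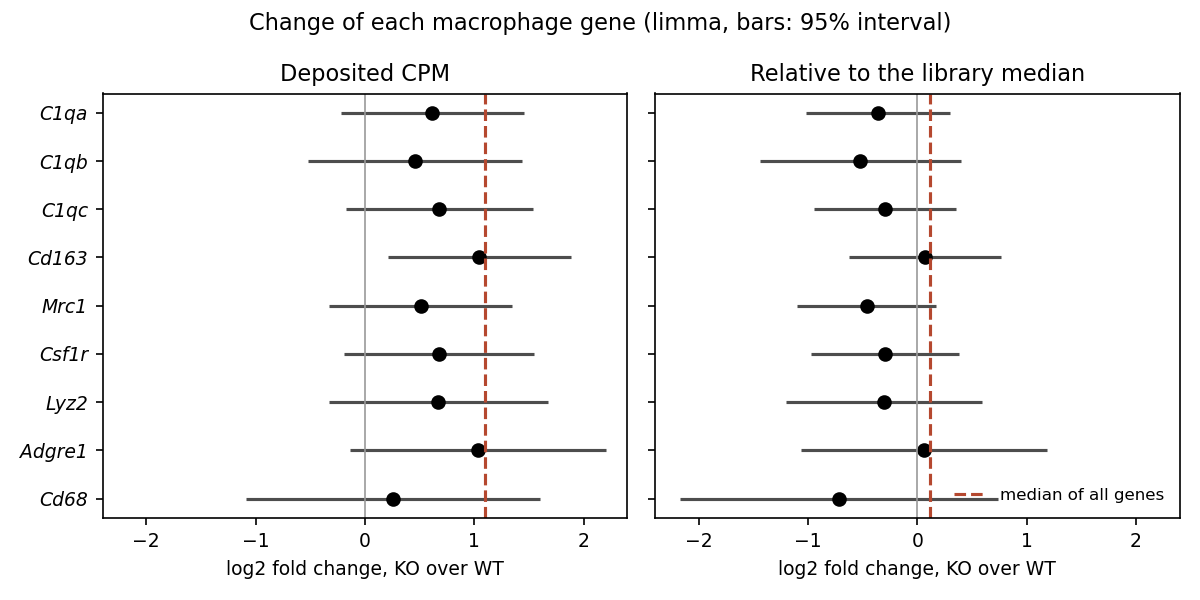
Log2 fold change of KO over WT for each macrophage gene in deposited CPM (left) and relative to the library median (right), with 95% limma intervals; the dashed line is the median of all genes, at 1.10 and 0.12. In the deposited scale the Cd163 interval lies above 0, and in the relative scale all 9 intervals include 0.

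Per kilobase of annotated exon (GENCODE M21), C1qa had the highest level, with 160 ± 65.8 CPM per kb over the 9 libraries (SD), and lay above C1qb (87.1 ± 64.4) in 9 of 9 libraries. C1qc (47.2 ± 19.1), Cd163 (38.6 ± 18.9) and Lyz2 (34.0 ± 24.8) followed in an order that 6 or 7 of the 9 libraries kept, so these neighbours did not differ beyond their spread. Csf1r (17.8 ± 8.40) and Mrc1 (16.6 ± 7.67) were next and could not be ordered, since Csf1r was higher in 4 of 9 libraries. Adgre1 (5.50 ± 4.26) and Cd68 (4.55 ± 3.63) came last, again without a fixed order. Against all listed genes ranked per kb, C1qa stood at percentile 98.4 and Cd68 at percentile 49.1.

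The summed level of the 9 genes averaged 980 ± 339 CPM in KO libraries and 666 ± 393 CPM in WT libraries (508 ± 289 without WT replicate 4), and the groups overlapped. The genes summed to 714, 958, 925, 1554 and 747 CPM in KO replicates 1 to 5, and to 291, 836, 398 and 1138 CPM in WT replicates 1 to 4. That was 0.0727% to 0.164% of listed reads in KO libraries and 0.0294% to 0.116% in WT libraries. With mt-Rnr1 and mt-Rnr2 removed and the other genes rescaled to the same total per library, the sums averaged 1236 ± 433 CPM in KO libraries and 1144 ± 399 CPM in WT libraries (SD, n = 5 and 4). A sum over genes chosen by name is given here as a description, with no test.

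Set against endothelial genes, the macrophage genes averaged lower in KO libraries, without a test. For every 100 CPM of the 19 endothelial genes there were 19.7, 25.7, 12.0, 24.7 and 9.07 CPM of macrophage genes in KO replicates 1 to 5, and 24.7, 37.5, 25.8 and 29.5 in WT replicates 1 to 4. The means were 18.3 ± 7.46 in KO libraries and 29.4 ± 5.80 in WT libraries, and the groups overlapped. The denominator moved more than the numerator: the endothelial genes summed to 5910 ± 2159 CPM in KO libraries and 2200 ± 1183 CPM in WT libraries, where 16 of the 19 were called higher in the deposited CPM, against 32.0% of all genes, and 5 to 18 when 1 library was left out (5 without WT replicate 1, where 9.27% of all genes were called higher). In the relative values 0 of the 19 were called, with a median of 0.40. KO replicates 3 and 5, the libraries with the lowest ratios, had the highest endothelial sums, 7685 and 8230 CPM.

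**Figure D4:**
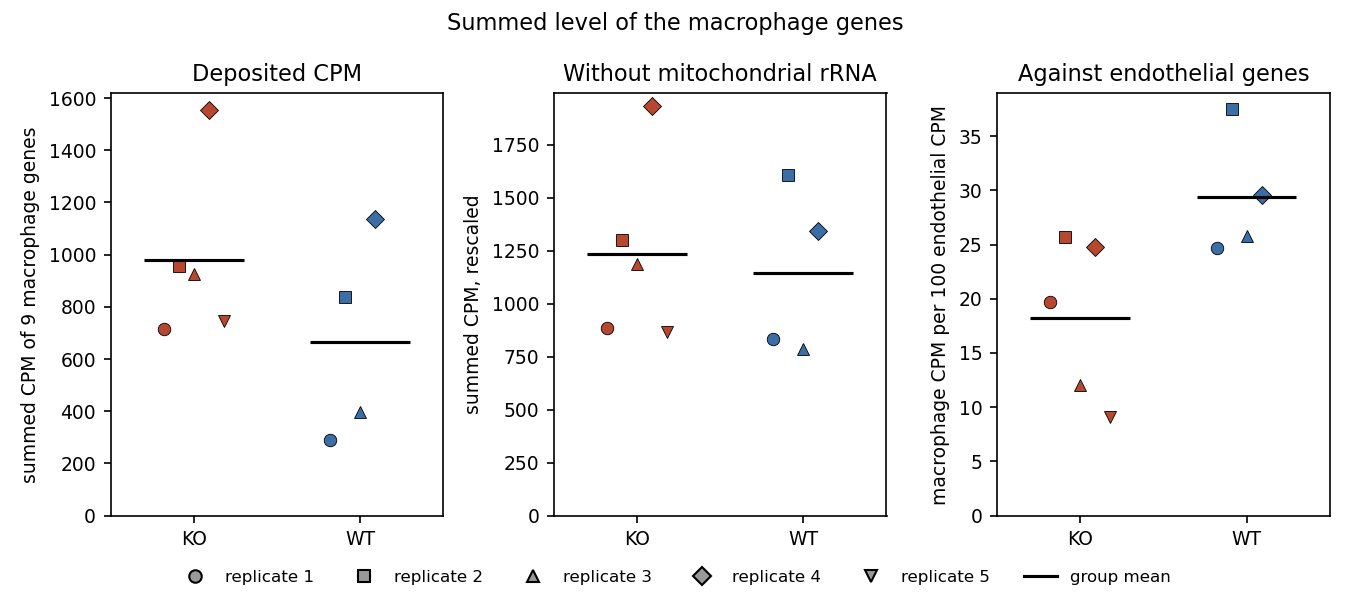
Summed CPM of the 9 macrophage genes as deposited (left), after rescaling without mitochondrial rRNA (middle) and per 100 CPM of 19 endothelial genes (right), with 1 point per library and bars at group means. Group means are 980 and 666, 1236 and 1144, and 18.3 and 29.4 for KO and WT.

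Profiles over the 9 libraries were compared by the root mean square distance between relative log2 values, each gene centred on its own mean, as a description without a test. C1qa and C1qc were each other's nearest gene of all, at a distance of 0.145. C1qb lay at place 2968 of 10581 in the order around C1qa, whereas in the order around C1qb, Csf1r was at place 9, Mrc1 at 27, C1qc at 148 and C1qa at 202. Nearest to C1qb were F13a1, the factor XIII subunit made by resident macrophages, and the ferritin light chain gene Ftl1, followed by Ftl2-ps. Mrc1 was at place 7 from C1qa and at place 10 from C1qc. Nearest to Csf1r were Sptlc2, S100a13 and Apoe, the apolipoprotein E gene, which macrophages and adipocytes express. Lyz2 had the interferon-inducible lysosomal thiol reductase gene Ifi30 among its nearest 3, beside predicted genes Gm5789 and Gm8835, while Cd163 was nearest to Ntrk2, Slain2 and Dennd6a. Cd68 lay between places 9249 and 10079 of 10581 around the other members. With 2 to 32 reads a library, counting error alone may set these places, so they do not show that Cd68 followed a different profile.

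Of 21 measured identity genes, 5 rose in the deposited CPM (against 32.0% of all genes), none fell, and in the relative values none was called and the median was -0.19. The count ran from 0 without WT replicate 1, where 9.27% of all genes were called higher, to 6 without WT replicate 4, where 50.1% were. Mertk, a receptor for dying cells, averaged 35.8 ± 8.15 CPM in KO libraries and 12.5 ± 10.2 CPM in WT libraries (deposited log2 fold change 1.94, limma adjusted p = 0.0139, relative change 0.96, adjusted p = 0.444). In the relative values 1 gene of the list had an unadjusted p under 0.05, Ms4a7, which was lower (-1.92, limma adjusted p = 0.255). Ms4a7 averaged 4.65 ± 3.43 CPM in KO libraries and 14.2 ± 12.5 CPM in WT libraries. The most abundant of the list, the lysosomal protease gene Ctss, averaged 270 ± 226 CPM in KO libraries and 154 ± 116 CPM in WT libraries and was not called. Maf, at 146 ± 50.5 and 101 ± 41.2 CPM in KO and WT libraries, was not called either.

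Of 13 measured genes of resident, vessel-associated macrophages, 3 rose in the deposited CPM, against 32.0% of all genes, and in the relative values none was called and the median was -0.15. The count ran from 1 to 7 when 1 library was left out. It was 7 without WT replicate 4, where 50.1% of all genes were called higher, and 1 without WT replicate 1, where 9.27% were. Stab1, a scavenger receptor also made by some endothelia, averaged 154 ± 14.9 CPM in KO libraries and 56.1 ± 25.5 CPM in WT libraries (deposited log2 fold change 1.58, limma adjusted p = 0.00895, relative change 0.60, adjusted p = 0.405). Cbr2 averaged 25.7 ± 9.52 CPM in KO libraries and 10.3 ± 8.67 CPM in WT libraries (1.51, adjusted p = 0.0352). In the relative values 1 gene of the list was higher at an unadjusted p under 0.05, Stab1, and 1 was lower, Cd209f (-1.20, limma adjusted p = 0.286). Selenop, the plasma selenoprotein gene, averaged 178 ± 93.0 CPM in KO libraries and 130 ± 177 CPM in WT libraries, a deposited log2 fold change of 1.40 (adjusted p = 0.0439). Its groups overlapped, with the highest library of all in WT (390 CPM, against a KO maximum of 303 CPM), and the exact two-sided permutation p for its CPM was 0.603.

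Of 15 measured genes linked to lipid-laden macrophages, 11 rose in the deposited CPM, against 32.0% of all genes, and in the relative values none was called and the median was 0.54. KO replicate 2 stood apart, with a mean relative log2 level over the list of 3.03, against 1.19 to 1.94 in the other KO libraries and 1.03 to 1.53 in WT libraries. Without it 5 of the 15 were called in the deposited CPM, where 32.4% of all genes were called higher, and the relative median was 0.27. Without WT replicate 1 the count was 1, where 9.27% of all genes were called higher. Endothelial cells and adipocytes also express several of them. Plin2, which coats lipid droplets, averaged 350 ± 29.2 CPM in KO libraries and 104 ± 46.5 CPM in WT libraries (deposited log2 fold change 1.85, limma adjusted p = 0.00364, relative change 0.88, adjusted p = 0.229). Lipa, the lysosomal acid lipase gene, averaged 39.4 ± 15.8 CPM in KO libraries and 10.4 ± 6.47 CPM in WT libraries (1.95, adjusted p = 0.0101). Cd36, the fatty acid transporter of capillaries, averaged 3814 ± 1252 CPM in KO libraries and 1294 ± 496 CPM in WT libraries (1.57, adjusted p = 0.0178), and Apoe averaged 1269 ± 331 CPM in KO libraries and 878 ± 708 CPM in WT libraries and was not called.

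Of 15 measured complement genes other than C1q, 3 rose in the deposited CPM, against 32.0% of all genes, and in the relative values none was called and the median was -0.16. The count ran from 1 to 4 when 1 library was left out. It was 1 without WT replicate 1, where 9.27% of all genes were called higher, and 4 without WT replicate 4, where 50.1% were. Without KO replicate 1, 1 gene of the list was called lower in each scale. There 22 of all 11802 genes were called lower in the deposited CPM and 106 in the relative values. C1ra and C1s1, the proteases that C1q activates, were not called, and C1s1 averaged 25.0 ± 10.9 CPM in KO libraries and 24.6 ± 13.4 CPM in WT libraries. Cd93, an endothelial and myeloid surface protein once described as a C1q receptor, averaged 448 ± 217 CPM in KO libraries and 135 ± 66.1 CPM in WT libraries (deposited log2 fold change 1.68, limma adjusted p = 0.00776, relative change 0.70). C3ar1, the receptor for complement fragment C3a on myeloid cells, averaged 12.6 ± 9.30 CPM in KO libraries and 1.58 ± 1.34 CPM in WT libraries (2.21, adjusted p = 0.0180). Calr, a chaperone that also binds C1q, was the most abundant, at 771 ± 150 and 565 ± 183 CPM in KO and WT libraries, and was not called. Cd55 averaged 28.0 ± 27.1 CPM in KO libraries and 66.6 ± 67.4 CPM in WT libraries (deposited log2 fold change -1.18, limma adjusted p = 0.0737). Its relative change was -2.16 (limma adjusted p = 0.103), and it was not called with all libraries.

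Markers of other blood cells were sparse. Of the T and NK cell list 1 of 15 genes was listed, of the B cell list 3 of 9, of the neutrophil and monocyte list 2 of 12, of the mast cell list 2 of 7 and of the dendritic cell list 5 of 11. The listed T and NK cell gene Cd247, the monocyte and endothelial gene Ly6c2 and the receptor gene Kit rose in the deposited CPM (limma adjusted p = 0.0267, 0.0447 and 0.0185). There 32.0% of all genes were called higher, and none of these genes was called in the relative values. With 1 library left out, Ly6c2 was called only without KO replicate 1 or WT replicate 4. Its exact two-sided permutation p for CPM was 0.159. Cd247 was not called without KO replicate 3, KO replicate 4 or WT replicate 1, nor Kit without KO replicate 4 or WT replicate 1. The other listed neutrophil and monocyte gene, Mmp9, was not called (deposited log2 fold change -0.38, relative change -1.36, limma adjusted p = 0.410 in the relative values). The 3 listed B cell genes were not called with all libraries either. Their relative changes were -1.90 for Ighm, -1.58 for Igkc and -2.76 for Cd22, each at an unadjusted limma p under 0.05. In that scale 1378 of all 11802 genes had such a p. In the deposited CPM 1 of the 3 was called lower without KO replicate 2, and 1 without WT replicate 2. There 23 and 21 of all genes were called lower. The 3 B cell genes summed to between 4.37 and 34.6 CPM in KO libraries and between 8.71 and 140.65 CPM in WT libraries, where WT replicates 1 and 4 were the high ones. The antigen presentation genes of the dendritic cell list, which macrophages also express, were abundant, with H2-Ab1 at 255 ± 141 CPM in KO libraries and 199 ± 137 CPM in WT libraries. None of the 5 was called, and their relative median was -0.37. Adipocyte genes summed to between 10834 and 25365 CPM in KO libraries and between 4923 and 9468 CPM in WT libraries, a sum made up mostly of Fabp4 (11778 CPM in KO libraries and 4272 CPM in WT libraries). Of the 15 adipocyte genes 4 rose in the deposited CPM, against 32.0% of all genes, and 12 had a log2 fold change above 0. The defining adipocyte genes Adipoq and Plin1 were among those below 0 there, at -0.29 and -0.20, and were not called. The count of 4 became 0 without KO replicate 1, KO replicate 3 or WT replicate 1. It became 7 without WT replicate 4, where 50.1% of all genes were called higher. In the relative values none of the 15 was called with all libraries, the median was -0.22 and 10 lay below 0. There 4 of the 15 were lower at an unadjusted p under 0.05, among them Adipoq (-1.27, limma adjusted p = 0.182) and Plin1 (-1.17, adjusted p = 0.250). Fibroblast genes summed to between 2062 and 13016 CPM in KO libraries and between 2766 and 9163 CPM in WT libraries. The part of these other cells in the macrophage gene levels was not tested.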

How the data were processed

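Each RNA sample was captured from 50 to 100 mg of white adipose tissue, per the labels' protocols; SMARTer Ultra Low Input v4 cDNA (2 to 5 ng of input) and Nextera XT libraries keep no strand. The authors deposited CPM for 11802 genes. Named in the submitters' processing notes, without roles, are edgeR 3.32.0, HISAT2 2.1.0, Trimmomatic 0.39, R 4.0.2 and FastQC 0.11.9. How reads were counted, and on which annotation, is not given in the sources used here. Columns summed to between 946406 and 990292 CPM, and at least 99.97% of nonzero values were whole multiples of 1 read, within 0.1 read, so reads were recovered. GENCODE M21 gave symbols for 11787 genes.

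Changes were tested with limma 3.58.1 (mean-variance trend) on log2(CPM + 1), which understates changes of low genes, with and without subtraction of library medians. The filter at a mean of 1 CPM removed no gene, the lowest mean being 1.77 CPM. EdgeR 4.0.16 and DESeq2 1.42.0 were run on recovered reads. The main limma fits on both scales, edgeR with TMM and DESeq2 were also run on simulated reads. That simulation did not build in the differing mitochondrial rRNA shares of the libraries, and the other tests and settings were not simulated. Every member is described. Of the other lists, up to 3 genes called in relative values are named, otherwise up to 2 called in CPM (smallest p). The 2 most abundant are named too. C1ra, C1s1, Cd55, Ms4a7, Cd209f, Cd22, Adipoq, Plin1 and unlisted neutrophil genes were picked with their values in view. One gene that the rule names is not reported here. The members and lists were chosen with earlier results of these data known.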

Additional observations from a re-analysis of the deposited data

Results flagged for a closer look

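Lyz2 stood apart in 1 WT library. WT replicate 4 held 114 CPM, and 2.75 in log2 relative to the library median, with the gap to the next WT library covering 0.929 and 0.971 of the group's whole range. Mrc1 in KO replicate 4 held 217 CPM, and the gap to the next KO library covered 0.742 of the range. Of 48 groups of values examined 3 were set apart in this way, and chance flags about 1 in 20. The cause was not tested.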

How the results depend on the processing

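Of the deposited CPM results, limma called 3804 of all genes, against 1940 with the replicate block, 9 after quantile normalization, 26 after rescaling without mt-Rnr1 and mt-Rnr2, 3 by edgeR with TMM, 141 by DESeq2 and 2267 by edgeR without TMM, a setting chosen after seeing the data. It called 0 with the endothelial or the adipocyte list mean as a covariate (1044 and 1770 at an unadjusted p under 0.05). Leaving out 1 library gave 1103 to 5930, the ends being without WT replicate 1 and without WT replicate 4. The 1 member called became 0 in each of these and other settings except no filter and the replicate block, and 0 to 4 when 1 library was left out. Replicate numbers do not pair the libraries (same-number correlations of -0.04 to 0.04), and the block changed no member's call. In relative values, 13 genes were called, against 4 with a pseudocount of 0.5, 5 at a mean CPM of at least 5, 0 without trend (1245 unadjusted), 38 with the block, 0 with the endothelial covariate (804 unadjusted), 3 by edgeR and 141 by DESeq2, and 0 to 127 with 1 library left out; members called stayed at 0 throughout. The summed difference of 314 CPM was 91.6 CPM after rescaling and 170 to 471 CPM with 1 library left out.

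Deposited log2 fold changes turned below 0 as follows. Quantile normalization gave Cd68 -1.03, Csf1r -0.26, Mrc1 -0.42, Lyz2 -0.28, C1qa -0.27, C1qb -0.48 and C1qc -0.26. Rescaling gave Cd68 -0.26, Mrc1 -0.075 and C1qb -0.12. The endothelial covariate gave Csf1r -0.47, Mrc1 -0.45, Lyz2 -0.67, C1qa -0.30, C1qb -0.90 and C1qc -0.43, and the adipocyte covariate C1qb -0.054. EdgeR with TMM gave Cd68 -0.74, Csf1r -0.42, Adgre1 -0.033, Mrc1 -0.51, Lyz2 -0.50, C1qa -0.47, C1qb -0.51, C1qc -0.44 and Cd163 -0.058. DESeq2 gave Cd68 -0.75, Csf1r -0.41, Adgre1 -0.026, Mrc1 -0.50, Lyz2 -0.51, C1qa -0.47, C1qb -0.50, C1qc -0.44 and Cd163 -0.052. With 1 library left out, Cd68 ran from -0.10 to 0.61 and C1qb from -0.072 to 0.97. In relative values the sign turned for Adgre1 with a pseudocount of 5 (-0.012), the adipocyte covariate (-0.21), edgeR (-0.033) and DESeq2 (-0.026), for Cd163 by edgeR (-0.058) and DESeq2 (-0.052), and for Cd68 with the endothelial covariate (0.51). With 1 library left out, Adgre1 ran from -0.25 to 0.47, Cd163 from -0.20 to 0.34 and Lyz2 from -0.52 to 0.15 in relative values. The cause was not tested. Counts of other lists with 1 library left out were also chosen after seeing the data. Cd68 had 2 to 32 reads a library.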
